A study of Mus musculus with 16 samples.

Results

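AP_25 is a small cluster of stromal vascular cells from brown fat of the mouse, that is, of the cells that remain when digested tissue is freed of its floating fat cells. Its members are the cells that the submitters' annotation calls AP_25: 271 of 109723 cells in all, of 24352 cells with a cluster name and of 2514 cells with a name beginning in AP. The names AP_8, AP_9, AP_25 and AP_26 are the submitters' own, and AP is read here as adipocyte progenitor. No gene values were analysed here, so the name could not be checked against Pdgfra, Cd34 or Dcn, the markers usually used for such cells, and levels of genes in AP_25 are not given. All results below rest on the number of cells in the cluster and on the depth, the mitochondrial share, the phase calls and the cluster numbers deposited for each cell.

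Adipocyte progenitors are fibroblast-like cells of the fat stroma that can divide and turn into fat cells. Pdgfra, a receptor for platelet-derived growth factors, Cd34, a surface glycoprotein of several progenitor types, and Dcn, a proteoglycan of the extracellular matrix, are commonly used to recognise them. In brown fat, the fat that burns lipid to give heat, cold activates sympathetic nerves, and new thermogenic fat cells can arise from progenitors of the stroma. Cycling is usually read from transcripts of the S and G2M phases.

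Mice of strain C57BL6J, with no genetic change named in the labels, were kept at 30 °C (thermoneutral), at 22 °C (room temperature), or at 5 °C for 2 days or for 7 days, with 4 libraries for each housing. A stay of 1 week is given for thermoneutral housing in the series' design and for room temperature in its protocol. The labels name neither age nor sex nor the number of mice behind a library, so p-values measure the spread between libraries, which may be partly technical. No cell of replicate 1 from 2-day cold carries a name, which leaves 15 libraries with AP cells. The libraries held 1473 to 10005 cells. A share of 7.13% to 59.1% of the cells of these 15 libraries carried a name. No barcode of an AP cell occurred in more than 1 library, while 77 of 24275 barcodes of named cells did.

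AP_25 cells were 10.8% of all AP cells (95% Wilson interval 9.63 to 12.1), 1.11% of named cells (0.989 to 1.25) and 0.247% of all cells (0.219 to 0.278). Such intervals, here and below, cover counting error alone. The cluster ranked 24 of the 28 named clusters by size. AP_8 with 1002 cells and AP_9 with 992 were the large AP clusters, and AP_26 with 249 cells was close to AP_25. The members came unevenly from the libraries. Thermoneutral replicate 1 gave 71 cells, which is 26.2% of the cluster, and replicates 2 and 4 of 2-day cold gave 45 and 38. These 3 libraries together held 56.8% of the AP_25 cells. At the other end, 5 of the 8 libraries from 30 °C and 22 °C held 5 cells or fewer.

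The place of AP_25 in the submitters' graph clusterings was examined at 8 resolutions, where a higher resolution cuts the cells into more clusters. In the clustering of the named cells, all 271 cells shared 1 cluster with AP_8 and AP_9 at resolutions 0.1 and 0.4, and AP_26 was not in it. At resolution 0.6 the cluster that held AP_25 had 1229 cells, 951 of them AP_9 and 7 AP_8. From resolution 0.8 upward AP_25 stood alone, with 267, 268, 271, 269 and 264 of its cells in 1 cluster at resolutions 0.8, 1, 1.2, 1.4 and 1.8. At most 1 cell of another name was in that cluster at each of these 5 resolutions. The names follow the numbers of resolution 1.2, at which AP_25 is cluster 25.

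**Figure D1:**
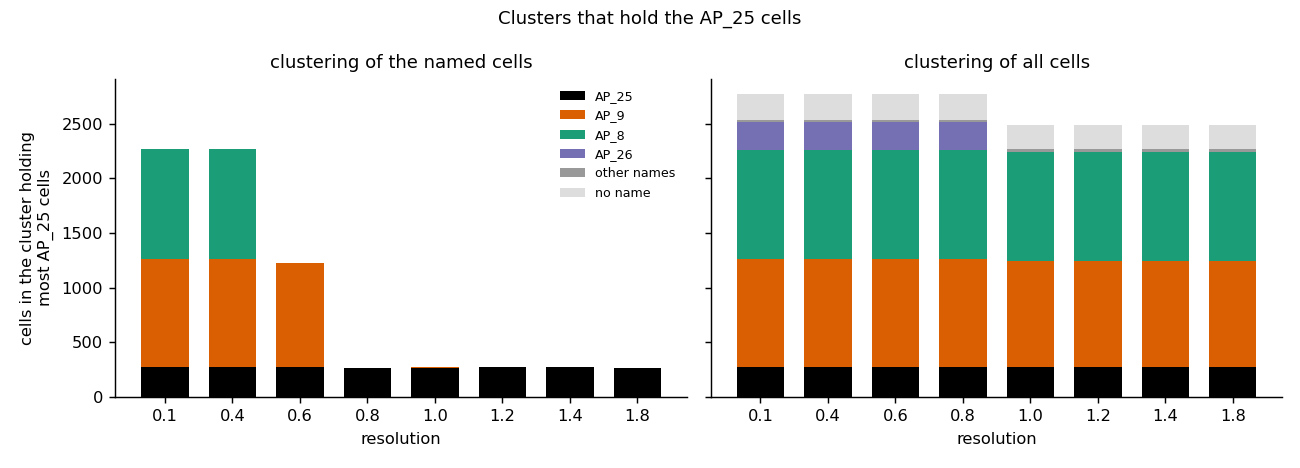
Number of cells (vertical axis) in the cluster that held most AP_25 cells at each resolution (horizontal axis), in the clustering of the named cells (left) and of all cells (right), with colours for the names of the cells in it. On the left AP_25 shared a cluster of 1229 cells mostly with AP_9 at resolution 0.6 and stood alone from resolution 0.8; on the right it was 10.9% of a cluster of 2487 cells at resolution 1.8.

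In the clustering of all cells, AP_25 did not form a cluster of its own at any of the 8 resolutions. All 271 cells lay in cluster 13 of the 61 clusters at resolution 1.8, with 1001 AP_8, 971 AP_9 and 2 AP_26 cells, 22 cells of other names and 220 cells without a name. AP_25 made up 10.9% of that cluster. The AP_26 cells were in the shared cluster up to resolution 0.8 (249 of 249) and outside it, but for 3 cells at most, from resolution 1. Of the 220 cells without a name, 143 were from replicate 1 of 2-day cold, and 77 were from the other 15 libraries. The 143 cells were 1.43% of that library (95% Wilson interval 1.22 to 1.68), between the 0.420% and 5.45% of the other libraries. Their median was 4463 UMIs and 3.16% mitochondrial UMIs, while the whole library had 9819 and 29.1%. How many of them would belong to AP_25 was not determined.

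The share of AP_25 among AP cells was taken first, because it shows whether AP_25 changed with housing apart from the other AP clusters. At 30 °C it was 13%, 6.06%, 0% and 3.39% in replicates 1 to 4. The 0% is 0 of 55 AP cells, which allows a share of up to 5.45% when the limit is set at 3 cells, and of up to 6.53% by the 95% Wilson interval. At 22 °C it was 23.5%, 4.24%, 16.5% and 2.94%. After 2 days at 5 °C it was 12.3%, 10.4% and 9.03% in replicates 2 to 4, and after 7 days it was 7.07%, 9.22%, 17.9% and 4.55% in replicates 1 to 4. The ranges of all 4 housings overlapped. Libraries of the same housing could differ by more than counting error: the intervals of room-temperature replicates 1 (15.6 to 33.8) and 2 (1.82 to 9.54) do not meet. The 3 libraries of 2-day cold were the closest to each other.

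**Figure D2:**
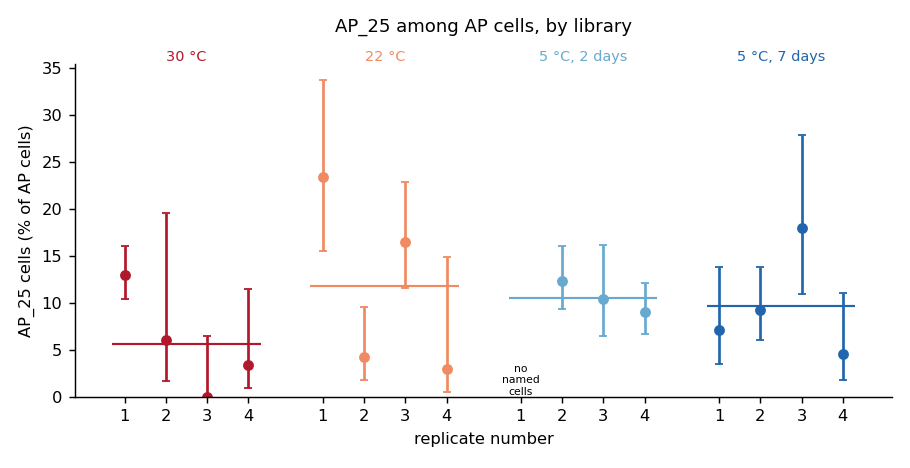
Share of AP_25 among AP cells (vertical axis, percent) in each library, by replicate number (horizontal axis) and housing. Points are libraries, bars are 95% Wilson intervals and horizontal lines are the means of a housing; the means lie between 5.60% and 11.8% and the libraries of the 4 housings overlap.

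The mean share was 5.60% ± 5.49 (SD, n = 4) at 30 °C, 11.8% ± 9.89 (n = 4) at 22 °C, 10.6% ± 1.66 (n = 3) after 2 days of cold and 9.70% ± 5.82 (n = 4) after 7 days. Ordered from low to high these are 30 °C, 7 days, 2 days and 22 °C, and no neighbours in that order differed beyond the spread of their libraries. Over both cold groups the share was 10.1% ± 4.25 (n = 7), and over 30 °C and 22 °C it was 8.69% ± 8.11 (n = 8). The difference in mean log2 odds, with 0.5 cells added to AP_25 and to the other AP cells, was 0.61 (two-sided exact permutation test over 6435 assignments, p = 0.388). It was 0.18 without thermoneutral replicate 3, which has no AP_25 cell, and 0.91 without room-temperature replicate 1 (exact permutation test, p = 0.716 and 0.154), with 0.99 for 0.1 cells added and 0.41 for 1 cell added. A limma fit over the 4 AP clusters gave 0.63 with a 95% interval of -0.62 to 1.87, which spans both a fall and a rise of the AP_25 odds among AP cells. Of the 6 pairs of housings, none passed an exact permutation test, with adjusted p-values from 0.629 to 0.943 and unadjusted ones from 0.257 to 0.943. In the exact permutation test of a single pair p could not go below 0.0286, so an adjusted p under the threshold of 0.05 would have needed several pairs at that limit.

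The estimate against 30 °C was similar in size for each other housing, at 1.22 for 22 °C, 1.36 for 2 days and 1.11 for 7 days of cold, all against the same 4 thermoneutral libraries. Without thermoneutral replicate 3 these fell to 0.43, 0.57 and 0.32. Other single libraries moved them as well. Without thermoneutral replicate 1 the values for 22 °C, 2 days and 7 days were 1.78, 1.92 and 1.67. The value for 22 °C was 0.70 without room-temperature replicate 1, and that for 7 days was 0.72 without 7-day replicate 3. Within replicates 3 and 4, where thermoneutral housing had 0 and 2 AP_25 cells, the log2 odds ratios were 2.26, 2.47 and 2.47. Within replicates 1 and 2, where 2-day cold has replicate 2 alone, they were 0.17, 0.38 and -0.25. For cold against the warmer housings the values were -0.13 and 1.34 in these sets of replicates. Neither the direction for 7 days nor that for cold as a whole held in both sets.

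AP_25 was also set against each other AP cluster by the log2 ratio of cell numbers in a library. Between cold and the warmer housings this ratio differed by 0.54 against AP_8, 0.82 against AP_9 and 0.11 against AP_26. None of the 3 passed (exact permutation test, p = 0.389, 0.302 and 0.920; adjusted p = 0.583, 0.583 and 0.920). Without thermoneutral replicate 3 the values against AP_8 and AP_9 were 0.23 and 0.34, and that against AP_8 was 0.35 without room-temperature replicate 4 and 0.34 without 7-day replicate 3. The value against AP_26 changed sign without thermoneutral replicate 3, at -0.46, and without replicate 2 or 4 of 2-day cold, at -0.13 and -0.17.

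Among named cells, AP_25 was more frequent in cold. Its share was 1.90%, 0.375%, 0% and 0.0782% in replicates 1 to 4 at 30 °C, where the 0% allows up to 0.216% with the limit at 3 cells and 0.276% by the 95% Wilson interval, and 1.13%, 0.162%, 1.41% and 0.280% at 22 °C. It was 1.78%, 1.04% and 1.79% in replicates 2 to 4 after 2 days at 5 °C, and 0.893%, 1.87%, 2.29% and 0.851% after 7 days. Every cold library lay above 5 of the 8 libraries from the warmer housings, and the other 3, thermoneutral replicate 1 and room-temperature replicates 1 and 3, lay inside the range of the cold libraries. The mean was 1.50% ± 0.567 (SD, n = 7) in cold and 0.667% ± 0.714 (n = 8) in the warmer housings.

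**Figure D3:**
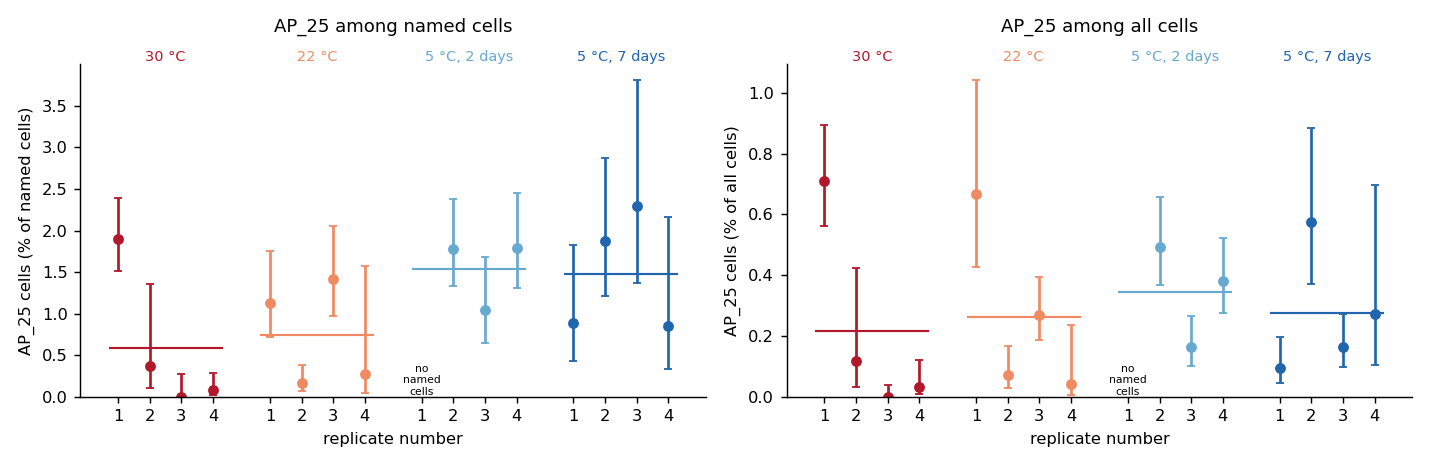
AP_25 cells as percent of named cells (left, vertical axis) and of all cells (right, vertical axis) in each library, by replicate number (horizontal axis) and housing. Points are libraries, bars are 95% Wilson intervals and lines are means of a housing; on the left the cold means are 1.54% and 1.48% against 0.588% at 30 °C and 0.747% at 22 °C, and on the right they are 0.345% and 0.276% against 0.215% and 0.263%.

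In limma over 27 named clusters, with the mean of both cold groups against the mean of both warmer ones, AP_25 was higher by 1.99 ± 0.74 in log2 odds (95% interval 0.41 to 3.56, adjusted p = 0.0386). For limma and DESeq2 estimates, here and below, ± gives the standard error. In the same comparison 40.7% of the clusters tested were called higher, 7.41% lower and 48.1% in either direction, so a call was common. The other AP clusters were called higher too, with 1.50 ± 0.45 for AP_8, 1.17 ± 0.45 for AP_9 and 1.8 ± 0.53 for AP_26 (limma, adjusted p = 0.0174, 0.0422 and 0.0174). All AP cells together were 15.5% ± 4.06 (SD, n = 7) of named cells in cold and 6.73% ± 4.03 (n = 8) in the warmer housings. All 4 AP clusters were thus called higher among named cells, while the share of AP_25 within AP cells, given above, differed by less than the spread of the libraries.

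The call of AP_25 depended on single libraries and on the tool. Leaving out thermoneutral replicate 3 or 4, room-temperature replicate 2 or 4, 2-day replicate 2 or 4, or 7-day replicate 1, 2 or 3 ended it, with estimates of 1.53 to 2.08 and limma adjusted p-values of 0.0532 to 0.0830. Leaving out any one of the other 6 libraries kept it, with 2.49 ± 0.60 without thermoneutral replicate 1 (limma, adjusted p = 0.00722). The fit without that library called 16 of 27 clusters. With cell numbers tested in edgeR the estimate was 1.10 (adjusted p = 0.162) and in DESeq2 0.94 ± 0.68 (adjusted p = 0.195). The log2 odds ratio was 1.26 in replicates 1 and 2 alone and 2.77 in replicates 3 and 4 alone, so the direction was the same in both.

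The denominator moved the result as well. A mean of 31.3% ± 12.5 (SD, n = 4) of cells carried a name at 30 °C and 34.3% ± 20.9 (n = 4) at 22 °C, but 21.5% ± 5.92 (n = 3) after 2 days and 20.1% ± 13 (n = 4) after 7 days of cold. As a share of all cells, AP_25 was 0.306% ± 0.182 (n = 7) in cold and 0.239% ± 0.290 (n = 8) in the warmer housings. The libraries ran from 0.0952% to 0.574% in cold and from 0% to 0.710% in the warmer housings, so the cold range lay inside the other. On this denominator limma gave 1.33 ± 0.87 and no call (adjusted p = 0.229). Cell numbers stood between 10000 and 10005 in 5 libraries.

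Each housing was compared with the others in the same fit. After 7 days AP_25 was higher than at 30 °C by 2.60 ± 1.00 (95% interval 0.46 to 4.74) with a limma adjusted p of 0.0501, just short of the threshold. The call turned on the fit: with the replicate number as a block the estimate was 2.60 and passed (limma, adjusted p = 0.0442), while edgeR gave 1.23 (adjusted p = 0.317) and 1.2 with TMM scaling (adjusted p = 0.256), DESeq2 gave 1.10 (adjusted p = 0.269) and all cells as denominator gave 1.79 (limma, adjusted p = 0.213). In the main fit 33.3% of the clusters were called higher, 3.7% lower and 37% in either direction. With the replicate number as a block 15 of 27 clusters were called, so a pass was common there. Without thermoneutral replicate 1 the estimate was 3.61 ± 0.85 and passed (limma, adjusted p = 0.00585), as it did without thermoneutral replicate 2 (2.93) or room-temperature replicate 2 (2.60). Those fits called 14, 14 and 12 of 27 clusters, in that order. Without thermoneutral replicate 3 the estimate was 1.70 (limma, adjusted p = 0.159). Within replicates 1 and 2 the value was 0.52 and within replicates 3 and 4 it was 4.69.

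After 2 days the difference from 30 °C was 2.70 ± 1.08 (95% interval 0.38 to 5.01), also without a call (limma, adjusted p = 0.114), in a comparison with 11.1% of clusters called. It was 3.71 and passed without thermoneutral replicate 1 (limma, adjusted p = 0.0145), where 7 of 27 clusters were called. The difference was 1.79 without thermoneutral replicate 3, and was 1.28 in edgeR, 1.27 with TMM scaling and 1.28 in DESeq2 (adjusted p = 0.386, 0.295 and 0.262). The values within replicates 1 and 2 and within 3 and 4 were 0.94 and 4.58. Room temperature was 1.33 ± 1.00 above thermoneutrality (limma, adjusted p = 0.580), with -1.06 and 3.72 within the sets of replicate numbers. That value was 0.30 in edgeR, 0.24 with TMM scaling and 0.51 in DESeq2, and ran from 0.42 without thermoneutral replicate 3 to 2.34 without thermoneutral replicate 1. Against room temperature, 2 days of cold gave 1.37 ± 1.08 (limma, adjusted p = 0.383) and 7 days gave 1.27 ± 1.00 (limma, adjusted p = 0.302), where 7.41% of the clusters were called, each as higher. Without room-temperature replicate 2 these were 0.78 and 0.69, in DESeq2 0.77 and 0.59, and with all cells as denominator 0.87 and 0.43. The difference between 7 and 2 days of cold was -0.09 ± 1.08, with a 95% interval of -2.40 to 2.22. That interval spans rises and falls of more than 2 in log2 odds, so the data do not show that both durations gave the same share.

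AP_25 cells had more UMIs, the counted RNA molecules, than the other AP cells. The median was 7616 UMIs and 2505 genes in AP_25, against 5161 and 1850 in AP_8, 5973 and 2220.5 in AP_9 and 3333 and 1438 in AP_26. In libraries with at least 5 cells of both clusters, the median UMI count of AP_25 was above that of AP_8 in 9 of 10, above AP_9 in 9 of 10 and above AP_26 in 9 of 9. The median ratio was 1.33, 1.41 and 1.87. The exception for both AP_8 and AP_9 was replicate 3 of 7-day cold, with 3461.5 UMIs in AP_25 against 4771 and 3803. Since the clusters were made from the gene values of these same cells, differences between clusters are described without a test.

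**Figure D4:**
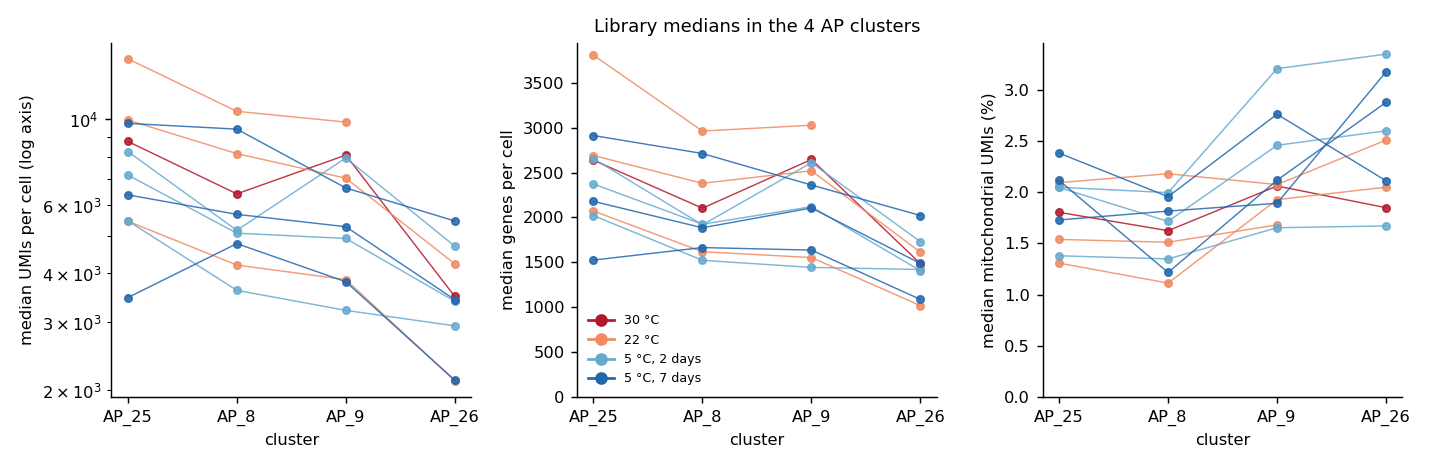
Median UMIs (log axis), genes and mitochondrial UMIs per cell (vertical axes, left to right) in the 4 AP clusters (horizontal axis), with 1 line for each library with at least 5 AP_25 cells and points for clusters with at least 5 cells. AP_25 had the higher median UMI count than AP_26 in 9 of 9 libraries, and a lower median mitochondrial share than AP_9 in 9 of 10.

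Across libraries with at least 5 AP_25 cells, the median UMI count of the cluster ran from 3461.5 in replicate 3 of 7-day cold to 14316 in room-temperature replicate 1. Single cells ran from 881 to 50381 UMIs, with a range of 2923 to 14422 from the 10th to the 90th percentile. Where cells of like depth were compared, the clusters were closer in genes. Between 2500 and 5000 UMIs the median was 1537 genes in AP_25, 1491 in AP_8, 1585 in AP_9 and 1487 in AP_26. Between 5000 and 10000 UMIs it was 2505.5, 2232, 2477 and 2300, with a median UMI count of 7621 in AP_25 and 6536 to 7083 in the others.

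Put as shares, the same UMI counts gave a rise of AP_25 among AP cells with the depth of the cells. The AP cells of each library were put into quartiles by UMI count. Pooled over libraries, AP_25 was 5.62% of the lowest quartile (95% Wilson interval 4.07 to 7.71), 9.84% of the second, 13.1% of the third and 14.5% of the highest (12 to 17.4). The means over libraries were 5.11% ± 5.99 (SD, n = 15) in the lowest quartile and 13.2% ± 9.68 in the highest. The share was higher in the top than in the bottom quartile in 10 of 15 libraries, lower in 3 and equal in 2. Among AP cells at or above their median UMI count, cold and the warmer housings differed by 0.61 in log2 odds of AP_25 (exact permutation test, p = 0.334), the same as among all AP cells.

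**Figure D5:**
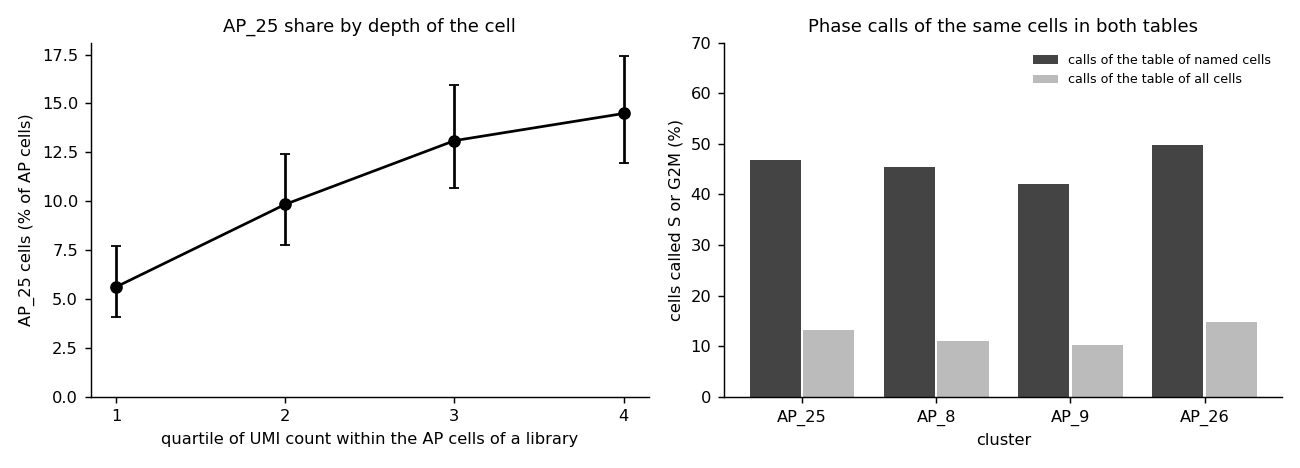
Left: share of AP_25 among AP cells (vertical axis, percent) by quartile of UMI count within the AP cells of a library (horizontal axis), pooled over 15 libraries with 95% Wilson intervals, rising from 5.62% to 14.5%. Right: share of cells called S or G2M (vertical axis, percent) in each AP cluster (horizontal axis) by the calls of each table, 46.9% and 13.3% for AP_25.

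Mitochondrial UMIs, often high in damaged cells, were few in AP_25. The median share was 1.8%, the third lowest of the 28 named clusters, and the 90th percentile was 3.52%. A single AP_25 cell, in replicate 1 of 7-day cold, exceeded 20%, with 21.9%. In libraries with at least 5 AP_25 cells the medians ran from 1.31% to 2.38%, and in the other 4 libraries with AP_25 cells, of 1 to 4 cells each, from 2.50% to 6.91%. AP_25 was above AP_8 in 8 of 10 libraries, by a median of 0.116 percentage points, below AP_9 in 9 of 10 and below AP_26 in 8 of 9. Dropping cells of 20% or more left the estimates for AP_25 among named cells in cold against the warmer housings at 2.03 ± 0.72 (limma, adjusted p = 0.0348). In that fit 14 of 25 clusters were called.

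Phase calls of AP_25 differed between the submitters' tables. In the table of named cells 144 of the 271 cells were called G1, 66 S and 61 G2M, so that 46.9% were called S or G2M. In the table of all cells the same cells were 235 G1, 24 S and 12 G2M, or 13.3% S or G2M. All 36 cells called S or G2M there had the same call among named cells, and the 91 differing calls were all G1 in the table of all cells. The UMI counts, gene counts and mitochondrial shares of the 271 cells were equal in both tables. The other AP clusters showed the same gap, with 45.4% and 11.1% for AP_8, 42.0% and 10.2% for AP_9 and 49.8% and 14.9% for AP_26. These calls alone are not read as cycling.

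High scores were rare. Of the 271 cells, 3 had an S or G2M score above 0.2 in the table of named cells, or 1.11%. In the other clusters these were 9 cells of AP_8 (0.898%), 10 of AP_9 (1.01%) and 1 of AP_26 (0.402%). All 3 AP_25 cells were called S or G2M in both tables, with 2 in room-temperature replicate 3 and 1 in replicate 2 of 7-day cold. The highest S score was 0.485 and the highest G2M score 1.01, while the medians of the cluster were -0.0248 and -0.0153. By the calls of the table of all cells, room-temperature replicate 3 stood out with 37.0% of its 27 AP_25 cells called S or G2M, and the other libraries with at least 5 AP_25 cells ran from 0% to 23.7%. Calls also went with depth: among AP_25 cells of 2500 to 5000 UMIs 63.3% were called S or G2M in the table of named cells, and among those of 10000 to 20000 UMIs 37.5%. The other AP clusters fell too, from 52.0% to 31.6% in AP_8, 48.6% to 30.2% in AP_9 and 51.7% to 42.9% in AP_26. Between 5000 and 10000 UMIs it was 46.4% in AP_25, 43.6% in AP_8, 35.8% in AP_9 and 50.8% in AP_26. By the table of all cells these were 12.5%, 4.26%, 5.18% and 1.69%. All these shares pool cells over libraries. Cells could not be thinned to one depth from these tables.

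Depth, quality and phase within AP_25 were compared between cold and the warmer housings over the 10 libraries with at least 5 AP_25 cells, of which 6 were cold and 4 were not. At 30 °C replicate 1 alone had that many. Averaged over libraries, the library median was 6745 ± 2192 UMIs (SD, n = 6) in cold and 9618 ± 3664 (n = 4) in the warmer housings. For genes this average was 2278 ± 490 and 2803 ± 728. The differences of -2874 UMIs and -525 genes became smaller without room-temperature replicate 1, at -1308 and -189. Without room-temperature replicate 3 they became larger, at -4263 and -768. The library median of the mitochondrial share averaged 1.95% ± 0.349 and 1.69% ± 0.339. That difference of 0.264 percentage points was 0.138 and 0.4 without room-temperature replicates 2 and 3, and 1.18 with means over the cells of a library. In the table of named cells, 45.3% ± 11.6 and 43.7% ± 14.0 of cells were called S or G2M. None of 6 measures passed an exact permutation test over 210 assignments, with adjusted p-values of 0.314 to 0.848. The lowest unadjusted p of the exact permutation test was 0.0524, for the median G2M score. Over libraries this score averaged -0.0245 ± 0.00974 in cold and -0.0112 ± 0.00591 in the warmer housings. That difference of -0.0133 was -0.00519 with means over the cells of a library in place of medians (exact permutation test, p = 0.671). It ran from -0.0161 to -0.0105 without 1 library. With the replicate number as a block it was -0.0181 (exact permutation test, p = 0.0370, adjusted p = 0.222), where p could not be smaller. Without the block the smallest p possible was 0.00476.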

How the data were processed

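Per the labels' protocols, interscapular brown fat was digested, fat cells, red blood cells and dead cells were removed, and libraries were made with a Chromium 3' v3 kit. The submitters' processing notes name STAR, Cell Ranger 3.0.1 and mm10; the sources used here give neither cell filters nor clustering settings. The deposited tables hold 1 row per cell. UMI and gene counts per cell are raw, as deposited by the authors. The mitochondrial fraction was deposited by the authors from 0 to 1 and is given in percent. S and G2M scores, phase calls, cluster numbers and cluster names were deposited by the authors and used as they stand. A further 7 columns of each table were not used.

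Libraries were matched to housings by the library name in each row. Shares were put on the log2 odds scale with 0.5 cells added. Shares of AP cells, cell ratios and measures within AP_25 were compared by two-sided exact permutation tests over libraries in Python 3.11.15. Shares of named cells were fitted with limma 3.58.1 in R 4.3.3 over the 27 clusters that averaged 10 cells or more per library, with 4 groups in one fit and Benjamini-Hochberg adjustment within a comparison. EdgeR 4.0.16 and DESeq2 1.42.0 on cell numbers were alternatives. Both procedures were tested on simulated or known values. No gene was named as a result, since the rule allowed none without gene values. The cluster, the comparisons and the pooling of both cold durations were chosen with earlier results of these data known. Doublets were not called.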

Additional observations from a re-analysis of the deposited data

Results flagged for a closer look

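Each housing with 4 values was searched for a library far from the others, in 13 groups of values, and chance flags about 1 in 20 groups. The share of AP_25 among all cells of thermoneutral replicate 1, at 0.710%, lay far above the 0% to 0.117% of the other thermoneutral libraries. Room-temperature replicate 1 held 2.81% of its cells in the cluster of all cells that contains AP_25, while the other room-temperature libraries held 1.32% to 1.56%.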

How the results depend on the processing

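AP_25 counts of 0 to 5 cells in 5 libraries from the warmer housings limit every ratio. For the share of AP cells no setting gave a call, and the 0.61 for cold against the warmer housings ran from 0.18 to 0.91 without 1 library. Among named cells the estimate for cold against the warmer housings, 1.99, lost its call with 0.1 cells added (2.37), all cells as denominator (1.33), edgeR (1.10, and 1.12 with TMM scaling), DESeq2 (0.94) and centred log ratios (1.39), and without 1 library it ran from 1.53 to 2.49. Cells of at least the median depth left AP_25 under the minimum of cells; fitted without that minimum, an alternative chosen after seeing the data, it gave 1.33 without a call, and 0.29 in place of -0.09 for 7 against 2 days. For 7 days against 30 °C, 2.60 passed among cells under 20% mitochondrial UMIs (2.61), where 11 of 25 clusters were called. It also passed with replicates 1 and 2 against 3 and 4 as covariate (2.60), where 17 of 27 were called. It did not pass in edgeR (1.23), DESeq2 (1.10) or with all cells as denominator (1.79), and ran from 1.70 to 3.61 without 1 library. Without 1 library, 2 days against 30 °C ran from 1.79 to 3.71, and 7 against 2 days from -0.35 to 0.10. Among AP cells, 2 days against room temperature turned to -1.19 percentage points as an untransformed share and to -0.28 with libraries of at least 50 AP cells, and 7 days against room temperature to 0.13 among cells of at least the median depth. Without 1 library these ran from -0.28 to 0.66 and from -0.53 to 0.40, and 7 against 2 days from -0.64 to 0.052. The log2 ratio to AP_26 was -0.027 with 1 cell added and ran from -0.46 to 0.54 without 1 library. The cells called S or G2M differed by 1.62 percentage points, from -4.19 to 6.80 without 1 library. The cause of these shifts was not tested.

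Same-numbered libraries deviated together in part, but not throughout. Over the named clusters 12 of 21 such pairs correlated above 0.1 (-0.30 to 0.65), and 7 of 15 libraries correlated best with their own number. The median correlation was 0.22 for same-numbered pairs and -0.036 for pairs of different number. Among pairs of different number it was 0.16 within the sets of replicates used above and -0.19 between these sets. Deviations were taken from the mean of each housing, so positive values for some pairs bring negative ones for others. The negative medians are therefore partly built in and no neutral baseline. With the number as a replicate block, 7 days against 30 °C passed in limma (2.60, adjusted p = 0.0442), where 15 of 27 clusters were called. With that block cold against the warmer housings was 2.17, with 16 of 27 clusters called. The share of AP cells then differed by 0.56 and the S or G2M share by -3.05 percentage points. The block changed no other call.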
